A study of Bos taurus with 5 samples.

Results

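The mRNAs of the inhibin alpha subunit (INHA), the inhibin beta A and beta B subunits (INHBA and INHBB), follistatin (FST) and anti-Mullerian hormone (AMH) were examined in bovine follicular walls. Their probes were found by RefSeq accession, 1 probe per gene, and make up 5 of the 10163 probes on the array besides controls and GAPDH. The follicles were the largest (F1, n = 3) and second-largest (F2, n = 2) of paired ovaries from pregnant Japanese Black cows. Granulosa cells and theca interna were kept together, stroma and theca externa were removed, and RNA of each follicle was labelled with Cy3 and hybridized to its own array. The labels name no treatment, the cows had been slaughtered for another purpose, and at least 1 F2 on the arrays came from the same cow as an F1. INHA, INHBA, FST and AMH are on the study's own list of genes higher in the F1. That list was chosen on these arrays, so their direction here is not independent evidence. INHBB is not on that list, but its values come from the same arrays. The study also found AMH and FSHR mRNA greater in the F1 by QPCR, as well as CYP19A1 and PGF, on the same follicles and another F2. In other follicles, its in situ hybridization placed AMH mRNA in granulosa cells, both in healthy and in atretic ones.

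Inhibins are dimers of the alpha subunit with a beta subunit and restrain the release of FSH from the pituitary, whereas activins are dimers of beta subunits alone and stimulate it. Follistatin binds activins and holds them away from their receptors. AMH is another hormone of the TGF-beta superfamily, made by granulosa cells of growing follicles, and dampens their response to FSH. In cattle, granulosa cells are the main ovarian source of inhibin, and growing antral follicles are known for strong expression of the alpha and beta A subunits.

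The probes are shown here because each value below rests on a single oligonucleotide, and because the hormone subunits share a feature at their ends. Proteins of the TGF-beta superfamily end in a knot of cysteines whose last pair is separated by 1 residue. The probe sequences, 5′ to 3′ in lower case as given in the scanner files, have in capitals the first match to codons for cysteine, any residue and cysteine (TGTNNNTGT, TGTNNNTGC, TGCNNNTGT or TGCNNNTGC). The AMH probe is given by its first 40 of 60 bases and the INHBA probe by its first 30.
INHA: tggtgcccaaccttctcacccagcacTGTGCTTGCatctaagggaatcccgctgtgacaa
INHBB: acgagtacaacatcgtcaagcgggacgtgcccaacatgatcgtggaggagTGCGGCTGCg
AMH: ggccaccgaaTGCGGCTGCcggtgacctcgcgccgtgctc
FST: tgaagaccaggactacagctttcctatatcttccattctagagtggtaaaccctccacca
INHBA: agacggtccagagaagacagtggtgacacg

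The INHA, INHBB and AMH probes held the cysteine motif, and the INHBB and AMH probes had the same 9 bases there. The FST and INHBA probes held no match on the printed strand. Of all 10163 probes, 974 (9.58%) had a match on the printed strand and 1552 (15.3%) on either strand. In the INHA and AMH probes the motif was followed by 1 more codon and a stop codon, which was the case in 63 probes (0.620%) of the array. The longest run shared between any pair of these 5 probes, on either strand, was 9 bases. With the other probes of the array it was between 11 and 14 bases. The AMH probe had a GC content of 76.7%, above that of 99.8% of the probes on the array, whose median was 43.3%.

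Signals are given as the processed signal divided by the median of the 100 GAPDH spots of the same array, called relative signal below. The coefficient of variation among those GAPDH spots was between 6.54% and 15.8% on the 5 arrays, and none of them was saturated. The lowest signal flagged as well above background was between 0.0124 and 0.0208. Between 30 and 48 probes per array were saturated, that is, at the ceiling of the scanner. Folds between the groups were taken from means of log2 values, that is, from geometric means. A fold with a saturated F1 or with an F2 not well above background is a lower limit. In the second case each F2 took the array's lowest signal with that flag, or its own signal if higher. Differences were tested with limma over the 5528 probes whose spots were well above background on all F1 arrays, on all F2 arrays or on both, with Benjamini-Hochberg adjustment over all of them. The median log2 difference F1 minus F2 over these probes was 0.27, and it was 0.06 with the 75th percentile in place of GAPDH. By the study's account of its collection, the follicles of a group each came from a different cow. The labels do not say which F1 and F2 shared a cow, and the main fit does not pair them. Its p-values measure the spread between these arrays. Among saturated F1 spots that spread comes from the software's local correction and the GAPDH median. The p-values of INHA and INHBA, and in part of FST, thus do not measure how these mRNAs vary among the F1. Where weak F2 spots make a fold a limit, the p-value belongs to the fitted difference, with signals raised to at least 0.001.

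All 5 genes were higher in every F1 than in both F2, and all 5 passed limma adjusted p under 0.05. Over all tested probes, every F1 was above both F2 in 33.4% and below both in 15.7%, and 6.39% (353 of 5528) were called higher in the F1. Without F2 replicate 1 that last count was 54 of 6009 tested probes, without F2 replicate 2 it was 123 of 5685, and without F1 replicate 1 it was 161 of 5609. The smallest difference was the 13.7-fold of AMH, and the other 4 are lower limits between 18.3-fold and 59.2-fold. Because whole follicular walls were measured, fewer cells of a type and less RNA per cell cannot be told apart.

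**Figure D1:**
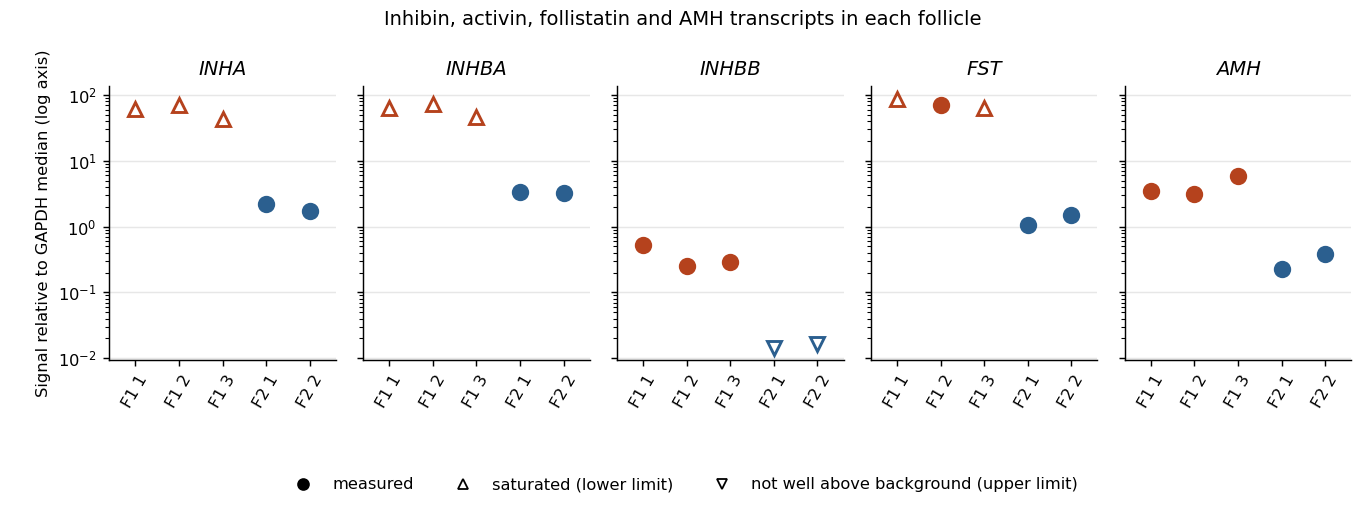
Relative signal (processed signal over the GAPDH median, log axis) of INHA, INHBA, INHBB, FST and AMH in the 3 F1 (red) and 2 F2 (blue), 1 point per follicle. Filled circles are measured values, open upward triangles are saturated spots and so lower limits, and open downward triangles are spots not well above background, drawn at the lowest signal well above background. In each panel all F1 lie above both F2, and INHA and INHBA have no measured value among the F1.

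INHA encodes the alpha subunit, which only inhibins contain. Its relative signal was 2.17 and 1.73 in F2 replicates 1 and 2, with raw mean intensities of 3032 and 1994. In the F1 all pixels of the spot were saturated on each array (60 of 60, 61 of 61 and 60 of 60), at raw mean intensities of 65366, 65367 and 65371. The processed relative signals of these spots were 61.9, 69.4 and 43.9, but since the raw intensities lay at the ceiling, these differ through the local correction of the software (a division by 1.07, 1.08 and 1.05) and through the GAPDH median. They therefore give no order among the F1. The F1 exceeded the F2 by at least 29.6-fold (limma adjusted p = 0.000372). The F2 differed from each other by 1.26-fold.

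INHBA encodes the beta A subunit of inhibin A and activin A. Its relative signals in the F2 were 3.41 and 3.19, which is 1.07-fold between the follicles and the closest pair of the 4 genes measured in both. All 3 F1 were again saturated in every pixel (63 of 63, 58 of 58 and 60 of 60), with processed relative signals of 64.5, 73.7 and 46.1. The difference was at least 18.3-fold (limma adjusted p = 0.000684). This is the smallest of the 4 lower limits, but a limit set by the ceiling does not rank INHBA below the others.

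INHBB encodes the beta B subunit of inhibin B and activin B. Unlike beta A it was measured without saturation in the F1, with relative signals of 0.526, 0.249 and 0.290, or 0.355 ± 0.149 (SD, n = 3). F1 replicate 1 was the highest, and the highest F1 was 2.11-fold above the lowest. In the F2 the spot was not well above background on either array, with relative signals of 0.00826 and -0.00806. The F2 were thus below what the array could measure, and every F1 lay above both. The F1 exceeded the F2 by at least 21.6-fold (limma adjusted p = 0.00558). This p-value belongs to the fitted log2 difference of 6.87, in which F2 replicate 2 was raised to 0.001. With signals raised to at least 0.01 instead, the fitted difference was 5.07 (limma adjusted p = 0.000172). INHBB entered the test through the F1 alone, since neither F2 spot was well above background. The limit depended on how background was treated, since with normexp correction, which adds a constant of 50 to every signal, it was 4.34-fold. With no filter on dim probes, where 10163 probes were tested, the limma adjusted p was 0.101.

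FST, the binding protein of activins, had relative signals of 1.04 and 1.49 in the F2, a 1.43-fold difference in which F2 replicate 2 was higher. For INHA and INHBA the higher F2 was replicate 1. F1 replicates 1 and 3 were saturated in all pixels (60 of 60 and 58 of 58), with processed relative signals of 88.1 and 63.6. F1 replicate 2 had no saturated pixel among 58, a raw mean intensity of 45853 and a measured relative signal of 71.2. The lower limit of the difference was 59.2-fold, the highest of the 4 limits (limma adjusted p = 0.000153).

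AMH was the only one of the 5 genes that was measured on all arrays, below the ceiling and well above background. Its relative signals were 3.53, 3.18 and 5.91 in the F1 against 0.225 and 0.388 in the F2. F1 replicate 3 was the highest, 1.86-fold above the lowest F1, and the F2 differed by 1.72-fold, so the groups lay much farther apart than the follicles within them. The log2 difference F1 minus F2 was 3.77 with a standard error of 0.40 (limma adjusted p = 0.00329). An exact permutation test over the 10 splits of the 5 arrays gave p = 0.1 (two-sided), the smallest value this design allows. Of the 4810 probes that were well above background and unsaturated on all arrays, 17 had a larger log2 difference F1 minus F2. The SD of log2 values among the F1 was 0.48 for AMH against a median of 0.33 over these probes, and between the F2 it was 0.55 against 0.28. AMH thus varied within each group more than most probes did (more than 74.7% of them in the F1 and 82.2% in the F2).

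Without F2 replicate 1 the AMH difference no longer passed, with a log2 difference of 3.38 and a limma adjusted p of 0.0894. With another follicle left out in turn it ranged from 0.00455 to 0.0357 (limma adjusted p). INHA, INHBA, INHBB and FST had limma adjusted p between 0.000683 and 0.035 with each follicle left out. Without either F2 the group is a single array, which is then assumed to vary like the F1, so those values carry no spread between F2. Their lower limits moved between 26.4-fold and 33.8-fold for INHA, 16.5-fold and 20.9-fold for INHBA, 17.3-fold and 25.1-fold for INHBB, and 49.5-fold and 70.8-fold for FST.

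**Figure D2:**
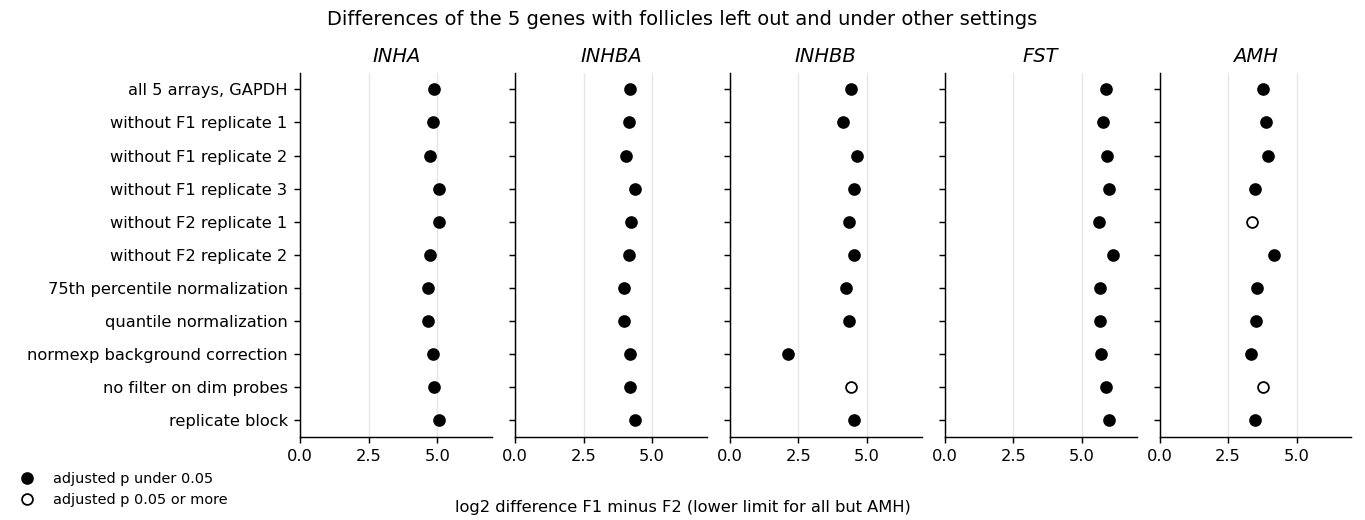
Log2 difference F1 minus F2 (horizontal axis) of the 5 genes with all arrays, with each follicle left out, and under other settings named at the left. Filled points had limma adjusted p under 0.05 and open points did not, and all values but those of AMH are lower limits. AMH is open without F2 replicate 1 and with no filter on dim probes, INHBB is open with no filter, and the INHBB limit is lowest with normexp background correction (2.12).

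**Figure D3:**
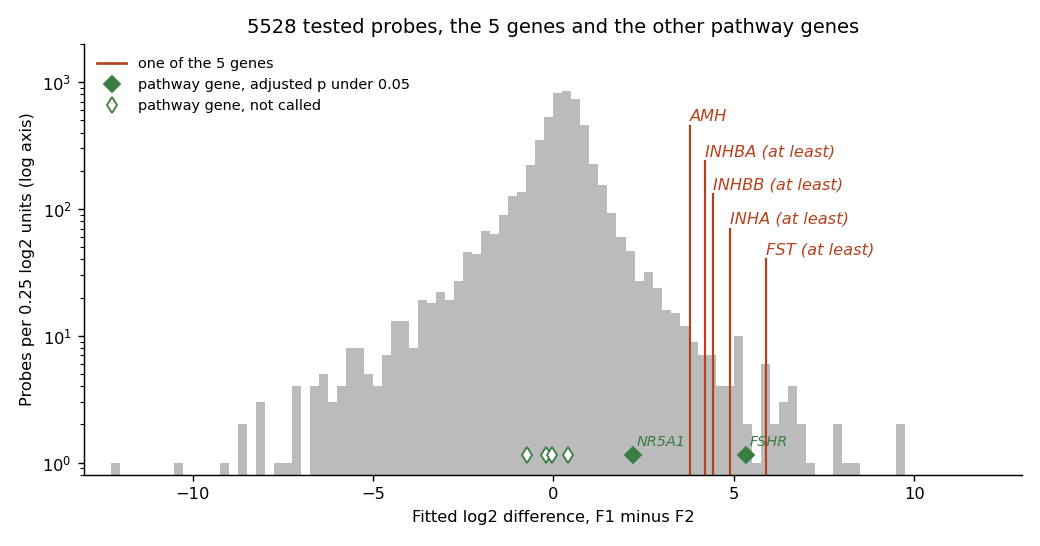
Histogram of fitted log2 differences F1 minus F2 of the 5528 tested probes (bars, log count axis), with AMH at its difference and INHA, INHBA, INHBB and FST at their lower limits (red lines). Diamonds mark the 6 tested genes of the pathway list, filled where limma adjusted p was under 0.05, with FSHR at its lower limit of 5.33. The 5 genes lie in the right tail, from 3.77 to 5.89, and the pathway genes lie on both sides of 0.

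The balance between the subunits and their binding protein was examined as ratios of signals within each array, where the GAPDH scale cancels. Since probes differ in how brightly they hybridize, a ratio says nothing about which mRNA was more abundant, and only its difference between follicles was read. Of the 50 ratios (10 pairs on 5 arrays), 17 were measured, 26 were limits in 1 direction (14 lower and 12 upper) and 7 had both spots saturated and no limit. None of the 10 pairs was measured on all arrays, so no ratio was tested.

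The AMH to FST ratio was the only one of the 10 pairs whose groups were separated. It was 0.217 and 0.261 in the F2, measured in both. In F1 replicate 2, where FST was not saturated, it was 0.0447. In F1 replicates 1 and 3 it was at most 0.0400 and 0.0928. The ratio was thus lower in every F1 than in both F2, by at least 4.33-fold on the mean of log2 values. FST thus differed between the groups by more than AMH did. With each follicle left out this limit was between 3.69-fold and 5.62-fold.

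For AMH to INHA, the ratio was 0.104 and 0.225 in the F2 and at most 0.0570, 0.0459 and 0.135 in the F1. The limit of F1 replicate 3, the follicle with the highest AMH, lay above F2 replicate 1, so the groups were not separated. They were separated with the raw mean minus the local background and with normexp, and without F1 replicate 3 or F2 replicate 1. AMH to INHBA showed the same pattern, with 0.0661 and 0.122 in the F2 and at most 0.0547, 0.0432 and 0.128 in the F1, and was separated without F1 replicate 3.

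Between the beta subunits, the INHBA to INHBB ratio was at least 123, 296 and 159 in the F1 and at least 235 and 192 in the F2. All 5 values are lower limits, for opposite reasons in the groups: INHBA was saturated in the F1, and INHBB was not well above background in the F2. A shift between beta A and beta B with follicle rank could therefore not be seen at this signal range. The INHA to INHBA ratio had no limit in the F1 and was 0.637 and 0.541 in the F2. INHBA to FST was 3.28 and 2.14 in the F2 and at least 1.04 in F1 replicate 2, and INHA to FST was 2.09 and 1.16 in the F2 and at least 0.974 in the same F1.

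AMH and INHBB were both lowest in F1 replicate 2 but had their highest values in different F1. Their ratio was 6.71, 12.8 and 20.3 in F1 replicates 1, 2 and 3, all measured, as F1 replicate 1 had the highest INHBB and F1 replicate 3 the highest AMH. The ratio was at least 15.6 and 23.3 in the F2. Without F1 replicate 3 or without F2 replicate 1 every F1 was below the F2 limits, so the comparison rested on those follicles. The INHBB to FST ratio was 0.00349 in F1 replicate 2 and at most 0.0139 on the other arrays.

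**Figure D4:**
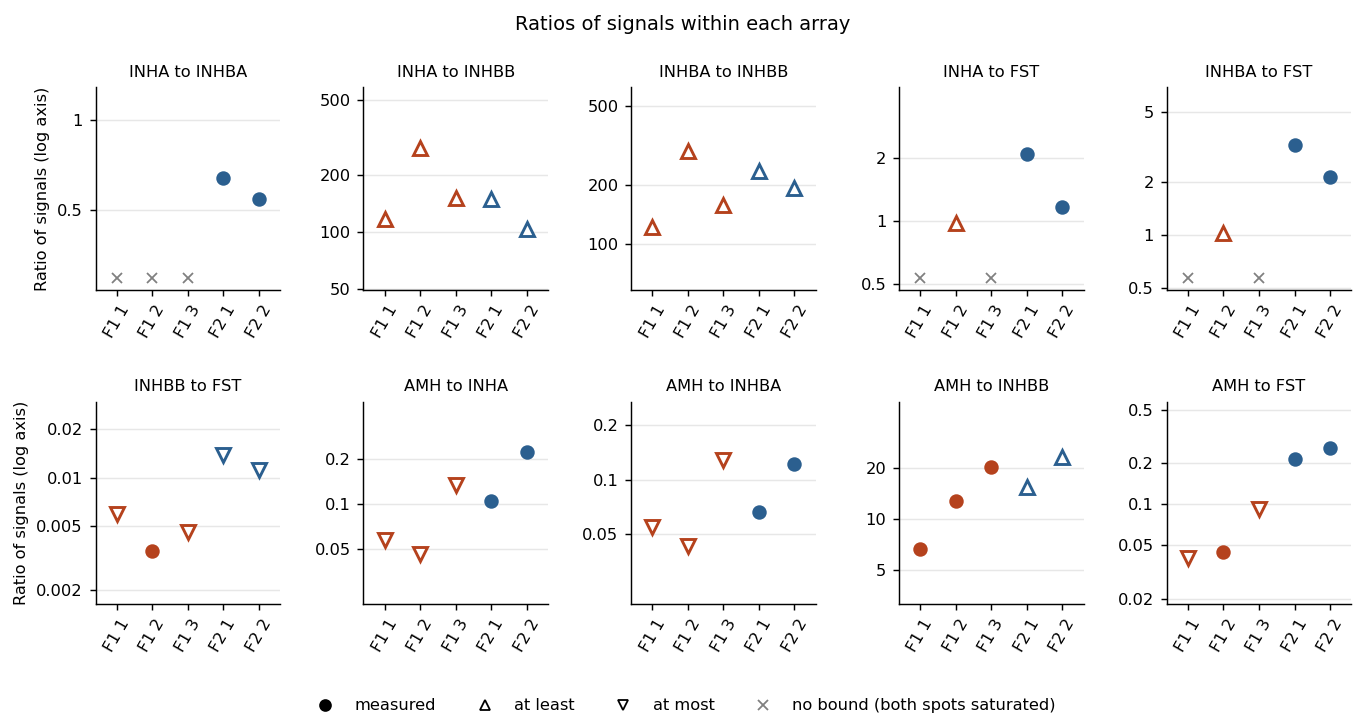
Ratio of signals (log axis) of each of the 10 pairs of genes in the 3 F1 (red) and 2 F2 (blue), 1 panel per pair. Filled circles are measured ratios, upward triangles are lower limits, downward triangles are upper limits, and crosses mark arrays where both spots were saturated and the ratio has no limit. The groups are separated only for AMH to FST, at most 0.0928 in the F1 against 0.217 and 0.261 in the F2.

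For AMH, the genes with the most similar pattern over the 5 arrays were sought among 713 other probes with a symbol that were well above background and unsaturated on all arrays. The nearest was CYP17A1, the theca enzyme of androgen synthesis, with a root mean square difference of 0.33 between log2 profiles after centring (Pearson r = 0.986 over 5 arrays). It had relative signals of 1.68, 2.56 and 3.11 in the F1 against 0.146 and 0.163 in the F2. SERPINF2, the alpha-2 antiplasmin, followed with 0.37 (r = 0.996), and PGF, the placental growth factor, with 0.45 (r = 0.982). SERPINF2 had relative signals of 0.782, 0.599 and 0.970 in the F1 against 0.0239 and 0.0526 in the F2. PGF shared with AMH its highest value in F1 replicate 3 (1.29, against 0.484 and 0.536 in the others), and the F2 were at 0.0601 and 0.129. CYP17A1, SERPINF2 and PGF are all on the study's F1 list, which was chosen on these same arrays. Each of these correlations is mostly the step between F1 and F2 and is given without a test. The other 4 genes were not compared in this way, as each was saturated or not well above background on some array.

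The signalling chain around these hormones was less well covered by named probes. Of 70 other genes of the activin, inhibin, AMH, BMP and TGF-beta system that were listed, 10 had a probe with a symbol and 6 could be tested. Of the 6, FSHR and NR5A1 were higher in the F1 and 4 were not called, while among all tested probes 6.39% were called in that direction and 5.08% in the opposite one. The median log2 difference of the 6 was 0.18, against 0.27 over all probes.

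Among the receptors, ACVR1, a type I receptor of the family, had relative signals from 0.0230 to 0.0530 in the F1 and of 0.0363 and 0.0447 in the F2 (limma adjusted p = 0.760). ACVR2B, a type II receptor that binds activin, was at 0.0441, 0.0121 and 0.0260 in the F1 against 0.0195 and 0.119 in the F2 (limma adjusted p = 0.470). The groups overlapped for both genes, and most signals lay close to the detection limit. The exception was ACVR2B in F2 replicate 2, without which its log2 difference F1 minus F2 turned from negative to 0.31. The probes of the activin receptor ACVR2A, the TGF-beta receptor TGFBR1 and the oocyte ligand GDF9 were not well above background on any array, and that of the ligand MSTN was so on 1 array. FURIN, a protease that cleaves the precursors of many TGF-beta family proteins, overlapped between the groups (0.0571, 0.0315 and 0.0320 in the F1, 0.0189 and 0.0447 in the F2, limma adjusted p = 0.601).

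FSHR, the receptor through which FSH acts on granulosa cells, gave 0.543, 0.827 and 0.545 in the F1, while its F2 signals of 0.00816 and 0.0141 were both too weak to be flagged as well above background. The lower limit of its difference was 40.3-fold. Its limma adjusted p of 0.000331 belongs to the fitted log2 difference of 5.86, and FSHR entered the test through the F1 alone. FSHR is on the study's list of genes higher in the F1. NR5A1 (steroidogenic factor 1), a transcription factor of steroid-producing cells, was at 0.154, 0.138 and 0.111 in the F1 against 0.0196 and 0.0427 in the F2, which is 4.59-fold between the groups (limma adjusted p = 0.0205). All 3 F1 were above both F2, but the limma adjusted p was 0.0657 without F1 replicate 1 and 0.144 without F2 replicate 1. CREB1, a transcription factor that responds to cyclic AMP, had nearly equal means (0.0473 in the F1 and 0.0477 in the F2, limma adjusted p = 0.944).

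**Figure D5:**
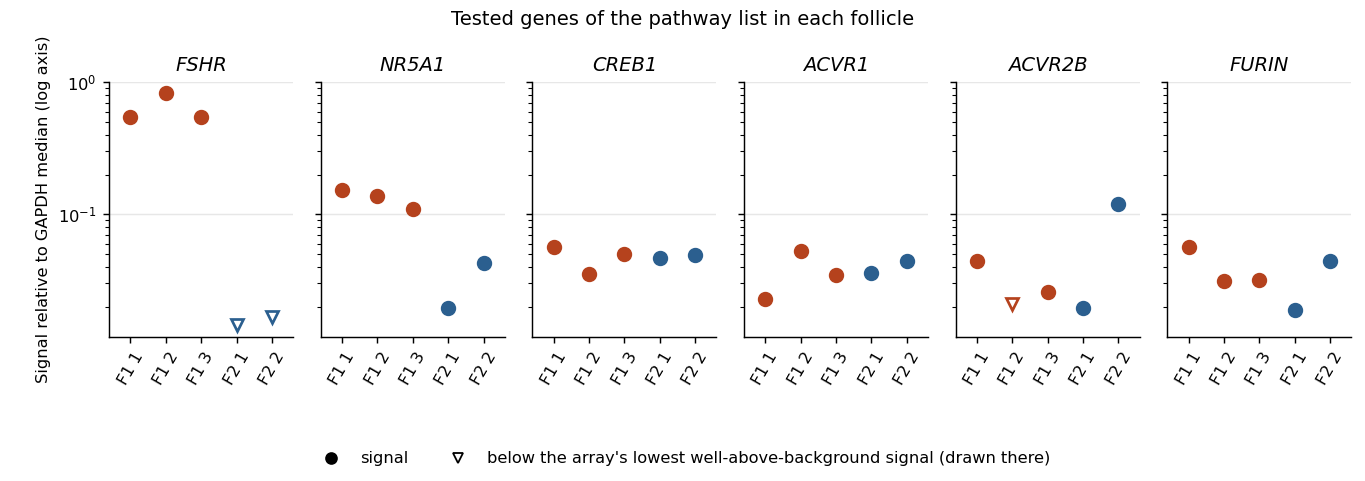
Relative signal (log axis) of the 6 tested genes of the pathway list in the 3 F1 (red) and 2 F2 (blue), 1 point per follicle. Open triangles are signals under the lowest one well above background on the array, drawn at that level. FSHR and NR5A1 are above both F2 in every F1, and the other 4 genes overlap.

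Markers of granulosa and theca cells were in part higher in the F1, as the 5 genes were, and markers of leukocytes and stroma were in part higher in the F2. For comparison, 6.39% of all tested probes were called toward the F1 and 5.08% toward the F2. Every F1 lay above both F2 in 33.4% of all tested probes and below both in 15.7%. FSHR and NR5A1 are the same probes already counted among the pathway genes, so their calls here add no further evidence. The granulosa list had 3 of its 8 genes on the array under a symbol (FSHR, CYP19A1 and SERPINE2), all called higher in the F1, and their summed relative signal was 61.6 to 88.8 in the F1 against 6.44 to 13.6 in the F2. SERPINE2 makes up most of these sums and was saturated in the F1. Of 7 theca genes, CYP17A1, INSL3, LHCGR and NR5A1 were called higher in the F1. CYP11A1 (limma adjusted p = 0.099) and HSD3B1 (limma adjusted p = 0.388) were not called. The summed signal of the 7 was 69.5 to 105.3 in the F1 against 30.2 to 33.4 in the F2. INSL3 had 39.2, 78.2 and 44.7 of these sums in the F1 and was saturated on 2 F1 arrays. STAR, which brings cholesterol into the mitochondria for steroid synthesis, lay lower in every F1 (5.56, 3.14 and 5.33) than in both F2 (16.1 and 9.91) but was not called (log2 difference -1.48, limma adjusted p = 0.0593). LHCGR had signals of 0.0329, 0.0335 and 0.0352 in the F1 and was too weak to be measured in both F2. It entered the test through the F1 alone, and its difference was at least 2.18-fold. The study's background describes a rise of the LH receptor in granulosa cells of the dominant follicle, so LHCGR does not mark theca alone. Whether the other genes of the theca list, such as NR5A1, mark theca alone was not tested. Of 4 leukocyte genes, CD14, AIF1 and CD3E were called higher in the F2. CD3E was too weak to be measured in the F1 and entered the test through the F2 alone. Its difference was at least 1.71-fold. The leukocyte sums were 0.891 to 1.01 in the F1 against 1.48 to 1.79 in the F2. ITGB2, which was not called (limma adjusted p = 0.217), makes up most of these sums. Of 2 stroma genes LUM was called higher in the F2, and the sums were 4.76 to 8.49 in the F1 against 8.83 to 16.1 in the F2. DCN makes up most of these sums, overlapped between the groups and was not called (limma adjusted p = 0.278). No endothelial gene of the 3 tested was called, and HBB of red blood cells was not well above background on any array. The part of cell composition in the differences of INHA, INHBA, INHBB, FST and AMH was not tested.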

How the data were processed

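The authors scanned 5 one-color Agilent arrays and extracted each spot with Feature Extraction. Scanner files deposited for each array hold a background-subtracted and locally corrected signal intensity, flags and saturated pixels. A table deposited by the authors gives ratios of this signal to the GAPDH median of the array, with saturated and weak spots empty. Probes were named by accession through a RefSeq gene table (assembly ARS-UCD2.0, names alone), which matched 1364 of 1415 RefSeq accessions.

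Signals were divided by the GAPDH median, raised to at least 0.001 of it and log2 transformed. Control spots, GAPDH spots and 1 outlier-flagged spot were left out, but not saturated ones. The comparison of F1 with F2 used limma 3.58.1 (lmFit, then eBayes; R 4.3.3), without a block, at a threshold of 0.05. The script was tested on simulated data. Permutation tests used scipy 1.17.1 in Python 3.11.15.

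The 5 genes, the lists of pathway and marker genes and the floor were chosen with earlier results of these data known. Named were the 5 genes, pathway genes passing the threshold and others needed for a count, the 3 nearest patterns to AMH, and the markers. Alternatives were other normalizations, backgrounds, filters and floors, the authors' values, an intensity trend, a replicate block and leaving out each follicle. Precision is limited by having 5 arrays. Of the pathway and marker genes, those without a probe matched by accession are not analysed here. A gene of the pathway list is not reported here, and counts of that list leave it out.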

Additional observations from a re-analysis of the deposited data

How the results depend on the processing

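INHA, INHBA and FST kept their direction and limma adjusted p under 0.05 under every alternative that could test them. The authors' table leaves saturated and weak spots empty, so it tested 2 of the 5 genes, FST and AMH, and called both. FST then had F1 replicate 2 alone, so its log2 difference of 5.84 is measured and not a limit, with that follicle assumed to vary like the F2. Of the 5 genes, 3 were called with no filter on dim probes, where the limma adjusted p was 0.0586 for AMH (log2 difference 3.77) and 0.101 for INHBB (lower limit 4.44). Unadjusted p rose too, from 5.9e-05 to 0.00158 for AMH and from 0.000158 to 0.00535 for INHBB, as the moderated variances changed with the probes fitted. Without F2 replicate 1 the AMH difference was 3.38 (limma adjusted p = 0.0894) and 4 genes were called, and all 5 were called without each other follicle. With each follicle left out, log2 differences or limits ranged from 4.72 to 5.08 for INHA, 4.05 to 4.39 for INHBA, 4.11 to 4.65 for INHBB, 5.63 to 6.15 for FST and 3.38 to 4.17 for AMH.

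Over all probes, 634 were called, of which 353 were higher in the F1 follicles. The count was 346 where 1 array well above background sufficed and 214 with no filter, and more probes were tested in both. It ranged from 160 to 550 with each follicle left out, with 160 without F2 replicate 1, 200 without F2 replicate 2 and 344 without F1 replicate 1. The split between higher in F1 and higher in F2 was 404 to 409 with the 75th percentile and 441 to 459 with quantile normalization.

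With the replicate block, 578 probes were called, all 5 genes kept their call, and their log2 differences or limits were 5.08 for INHA, 4.39 for INHBA, 4.54 for INHBB, 5.99 for FST and 3.50 for AMH. The labels do not say that the numbers pair follicles, and deviations from the group means correlated by 0.0390 between both replicates 1 and by 0.13 between both replicates 2.

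Separated ratios numbered 1 with all arrays, 2 with normexp and with the raw mean minus local background (AMH to INHA and AMH to FST), and 1 to 4 with a follicle left out (4 without F1 replicate 3 and 3 without F2 replicate 1). The log2 limit of AMH to FST, F1 minus F2, was -2.11, and -2.49 to -1.88 with a follicle left out. Of the 6 tested pathway genes 2 were called. The count was 1 with the authors' values and where all arrays had to be well above background (FSHR was then not tested), 1 where 1 such array sufficed, and 1 to 2 with a follicle left out (1 without F1 replicate 1 and without F2 replicate 1). NR5A1 lost its call where 1 array well above background sufficed (limma adjusted p = 0.0626) and with no filter (0.130). With no filter ACVR2A passed, though it was well above background on no array. Saturation in the F1 or background in the F2 limits the values of 4 of the 5 genes.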
